A study of Mus musculus with 14 samples.

Results

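The 10 genes described here build, hydroxylate, crosslink or bind the collagen fibrils of connective tissue: Col1a1, Col1a2, Col3a1, Col5a1, Col5a2, Col5a3, Lox, Loxl1, P4ha1 and Sparc. They were chosen by name, as every gene whose symbol equals one of these, and make up 10 of the 54532 genes of the table. The choice was made with earlier results of these data known. All 10 passed the filter on low counts that left 15458 genes to test.

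Fibrillar collagens are secreted as procollagen trimers, trimmed outside the cell and packed into banded fibrils. Type I collagen, the main fibril former of tendon and muscle sheaths, is assembled from the chains of Col1a1 and Col1a2, type III from Col3a1, and type V, which starts fibrils and limits their width, from Col5a1, Col5a2 and Col5a3. P4ha1 encodes a catalytic subunit of prolyl 4-hydroxylase, which makes the triple helix stable at body temperature, and the lysyl oxidases Lox and Loxl1 oxidize lysines so that neighbouring molecules become crosslinked. In skeletal muscle these proteins lie in the sheaths around fibres and bundles and in the tendon, and resident fibroblasts are their best known source.

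The study asked how c-Myc in endothelial cells, which line blood vessels, bears on the muscle transcriptome of mice fed a western diet. All animals were male FVB/N mice that carried a tetracycline-responsive human MYC transgene. In EC-Myc OE mice, hereafter OE, a tetracycline transactivator driven by the Cdh5 promoter switched the transgene on in endothelium once doxycycline was withdrawn. The littermate controls, CT, carried no transactivator. Doxycycline was withdrawn at 4 to 6 weeks of age in both genotypes. Mice of both genotypes were fed a control diet (TD.08485, CTD) or a western diet (TD.88137, WD) for 20 weeks by the labels, and poly-A RNA gave 4 libraries from OE and 3 from CT on either diet.

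The transgene sits on the Y chromosome. According to the study's methods the RNA came from soleus and gastrocnemius, but the labels say only skeletal muscle and do not give the muscle of each library. The study's text describes equal sizes for both control diet groups and a larger size for both western diet groups, whereas the labels give equal sizes within each genotype. The diet lasts another number of weeks in the study's account of the transcriptome. In the sample names, the numbers of the libraries labelled CT-CTD and CT-WD run through each other.

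The values go against the labels as the study's text uses the group names. Fold changes that the text gives for single genes between its OE and CT groups on western diet come out of these tables between the libraries labelled OE-WD and OE-CTD. Of the 7 genes compared, 2 have the opposite direction between the libraries labelled OE-WD and CT-WD, and 5 the same direction at another size, which for 1 of them is close. The group sizes in the text also fit the labels only once the names CT-WD and OE-CTD are exchanged. Whether the labels or the text hold the true names cannot be told from the tables. Over all genes tested, DESeq2 at over 1.5-fold and an unadjusted p under 0.05 called 482 between CT-WD and CT-CTD, 207 between OE-WD and OE-CTD (105 higher and 102 lower), 892 between OE-WD and CT-WD and 1131 between OE-CTD and CT-CTD. Such totals do not say which genes were called and do not settle the names.

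Group names below are those of the labels, and genotype and diet mean genotype and diet as labelled. With the names exchanged, every value stays and its meaning changes. OE-CTD against CT-CTD is then western against control diet within CT, OE-WD against CT-WD is the diet difference within OE, and OE against CT averaged over diets is western against control diet averaged over genotypes. Differences given as diet are then differences between OE and CT, and the interaction stays the same. No difference below can therefore be assigned to the transgene or to the diet. The human transgene was not counted, and mouse Myc differed between OE and CT by a log2 fold change of -0.17 (SE 0.219), adjusted p = 0.696 by edgeR's quasi-likelihood test with Benjamini-Hochberg adjustment. Between diets as labelled, averaged over genotypes, mouse Myc differed by 0.51 (SE 0.220), adjusted p = 0.770 by the same test.

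Total counts ran from 21833839 to 28519159 per library. The 10 genes together took between 0.0529% of counts, in CT-WD 2, and 0.268%, in OE-WD 2. The lowest count of any of these genes in any library was 149, for Lox in CT-CTD 2. Counting error was therefore small beside the spread over all 14 libraries, though not within every group, as for P4ha1 in CT-CTD. The labels call the libraries separate samples, and the names of 3 of 4 OE-CTD and 4 of 4 OE-WD libraries share a number whose meaning is not given. Compared gene by gene as counts, the 3 OE-CTD libraries that share a number differed by a chi-square per degree of freedom of 7.76 to 10.5, and these differed from OE-CTD 4 by 36.3 to 42.4. OE-WD 1, 2 and 3 differed by 8.46 to 15.1, and these differed from OE-WD 4, of the same number, by 38.4 to 42.4. The CT libraries differed within their groups by 16.5 to 50.3. The p-values below take every library as a replicate, and if a shared number means a shared animal, they rest on fewer animals than libraries. A fit with libraries of a shared number summed, which leaves 2 OE-CTD and 1 OE-WD columns and was added after the data were seen, is given beside the counts of the 10 genes. Levels between libraries are compared below as CPM, counts divided by the library total after scaling with TMM factors, and levels between genes as FPKM, which accounts for gene length.

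CT-WD 1 had the highest level of its group in 8 of the 10 genes, all but Col5a3 and P4ha1, and OE-WD 2 in 9, all but P4ha1. The summed level of the 10 genes was 1527 CPM in CT-WD 1 against 558 and 629 CPM in CT-WD 2 and 3, and 2545 CPM in OE-WD 2 against 1084 to 1434 CPM in OE-WD 1, 3 and 4. By contrast, the CT-CTD libraries summed to 617 to 723 CPM, and the OE-CTD libraries to 1083 to 1701 CPM. By the test for a value apart in a group of 4, OE-WD 2 passed for 0 of the 10 genes, and groups of 3 were not tested. Counts of the 10 genes called by genotype are given with and without this pair. So are fold changes of genes whose call in OE-WD against CT-WD or averaged over diets changes without either. That choice was made after the values were seen. Both libraries were picked from the levels of these same genes. Counts without either of them therefore cannot be weighed against the shares of all genes beside them.

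**Figure D1:**
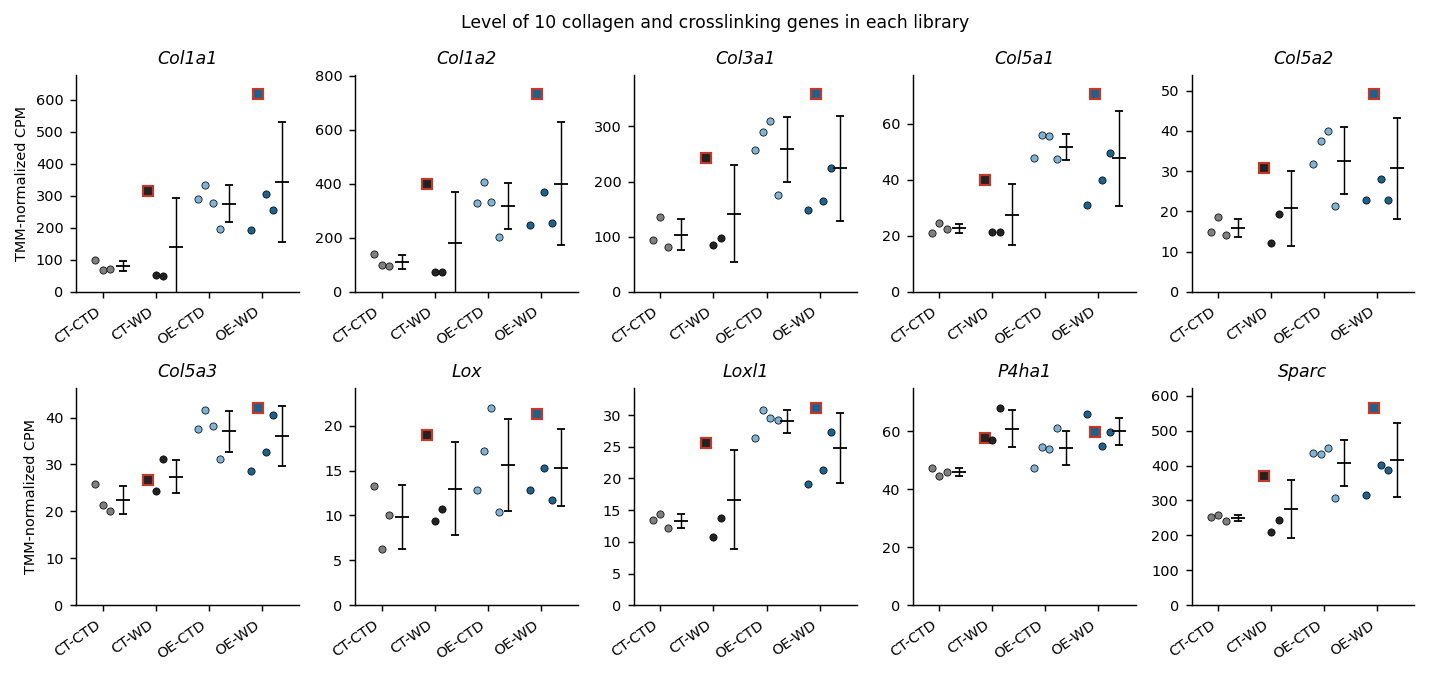
TMM-normalized CPM (vertical axis, from 0) of each of the 10 genes in the 14 libraries, by group, with the mean and SD of each group as a bar ending at 0 and red squares marking CT-WD 1 and OE-WD 2. For Col1a1, the CT libraries other than CT-WD 1 lie between 49.0 and 99.9 CPM and the 8 OE libraries between 194 and 616 CPM.

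Between libraries labelled OE-CTD and CT-CTD, 8 of these genes did not overlap. By edgeR's quasi-likelihood test, 3 of the 10 genes (Col5a1, Col5a3 and Loxl1) were higher in OE-CTD than in CT-CTD by over 1.5-fold at a Benjamini-Hochberg adjusted p under 0.05, against 1.18% of the 15458 genes tested that were called higher. At an unadjusted p under 0.05 there were 9, all but P4ha1, against 4.94% of genes tested. For 8 genes, all but Lox and P4ha1, the 4 OE-CTD libraries lay above the 3 CT-CTD libraries without overlap, which held for 8.73% of genes tested. The median log2 fold change of the 10 genes was 1.08, beside -0.000702 over all genes tested. In bulk muscle RNA, a difference in the number of cells of a type and one in the RNA per cell cannot be told apart.

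The adjusted count of 3 depended on single libraries. It was 0 without CT-CTD 2, CT-CTD 3, OE-CTD 2 or OE-CTD 3, each left out alone. Of all genes, 0.624%, 0.403%, 0.663% and 0.663% were then called in either direction. It was 8 without CT-WD 1 and 4 without OE-WD 2, beside 2.78% and 1.78% of all genes. These libraries are not in the comparison but enter the shared estimate of the spread. With both of them out it was 8, beside 2.79% of all genes in either direction. With replicate numbers fitted as a block it was 0, beside 0.0906%. With libraries of a shared number summed, edgeR's test called 0 at the adjusted and 6 at the unadjusted level, beside 0.00616% and 4.30% of all genes in either direction, and the log2 fold changes of Col5a1, Col5a3 and Loxl1 were 1.15 (SE 0.238), 0.65 (SE 0.156) and 1.13 (SE 0.283).

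Averaged over both labelled diets, 7 of the 10 genes were higher in libraries labelled OE at the adjusted level, namely Col1a1, Col1a2, Col3a1, Col5a1, Col5a2, Loxl1 and Sparc, against 2.4% of genes tested that were called higher. The unadjusted level gave 7 as well, against 4.9% of genes tested. The adjusted count was 7 without CT-WD 1, 2 without OE-WD 2, 7 without both and 2 without CT-WD 2. Of all genes, 7.02%, 2.40%, 5.78% and 2.11% were then called in either direction. Left out singly, CT-CTD 2, OE-CTD 2 and OE-CTD 3 each gave 4, and CT-CTD 3 gave 3, beside 2.71%, 2.54%, 2.74% and 2.21% of all genes. With replicate numbers fitted as a block the adjusted count was 0, beside 1.31% of all genes in either direction. With libraries of a shared number summed, edgeR's test called 0 at the adjusted and 7 at the unadjusted level, beside 0.0431% and 4.24% of all genes in either direction. None of the 10 genes had all 8 OE libraries above all 6 CT libraries, which 1.06% of genes tested did. Once CT-WD 1 was set aside, 7 genes, the same 7 as above, had every OE library above the other 5 CT libraries. This held for 3.12% of genes tested. CT-WD 1 was set aside because it was high in these same genes, and no library was picked in that way for the others. The count of 7 therefore cannot be weighed against that share.

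Between libraries labelled OE-WD and CT-WD, the calls depended on CT-WD 1 and OE-WD 2. With all libraries, edgeR's quasi-likelihood test called 0 of the 10 genes at the adjusted level, against 0.252% of genes tested called higher. It called 4 at the unadjusted level (Col1a1, Col1a2, Col5a1 and Sparc), against 3.32%, and DESeq2 called 1 at the adjusted level and limma on FPKM 0. No gene separated OE-WD from CT-WD without overlap, a pattern found in 6.06% of genes tested. Without CT-WD 1 the adjusted count was 6 and the unadjusted count 7, where 5.72% and 11.8% of all genes tested were called in either direction. Without OE-WD 2 both were 0, beside 0.0260% and 4.32%. With both libraries out, 6 genes passed the adjusted level, beside 3.10% of all genes in either direction, and they were Col1a1, Col1a2, Col3a1, Col5a1, Loxl1 and Sparc. The lone pair CT-WD 2 and 3 then stands for CT on western diet. With libraries of a shared number summed, the counts were 0 at the adjusted and 2 at the unadjusted level of edgeR's test, beside 0% and 2.07% of all genes in either direction.

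Between diets as labelled, which are genotypes if the names are exchanged, 0 of these genes passed the thresholds used. In CT, edgeR's quasi-likelihood test called 0 of the 10 at either level, beside 0% of genes tested at the adjusted and 3.05% at the unadjusted level. In OE it called 0 at either level, beside 0.00647% and 1.37%, and averaged over genotypes 0 at either level, beside 0.00647% and 1.6%. For the interaction of diet with genotype the counts were 0 and 0, beside 0% and 2.7%. DESeq2 and limma on FPKM called 0 in each of these comparisons as well. With single libraries left out, unadjusted counts of the 10 genes ran from 0 to 1 for diet in CT. They ran from 0 to 1 for diet averaged over genotypes and from 0 to 4 for the interaction. Groups without overlap were found for 1 gene, P4ha1, higher in CT-WD than in CT-CTD, against 4.47% of genes tested, and for 0 genes in OE, against 1.84%.

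**Figure D2:**
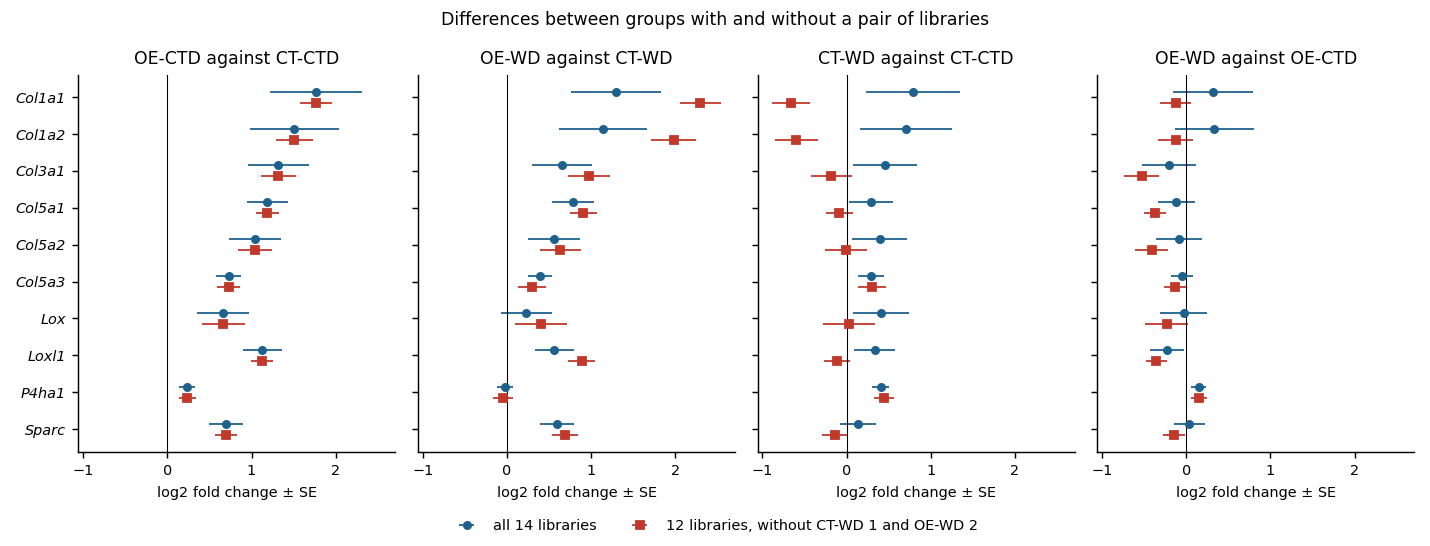
Log2 fold changes with their SE (horizontal axis) of the 10 genes (vertical axis) in the 4 comparisons between groups, from the fit of all 14 libraries (blue circles) and of 12 libraries without CT-WD 1 and OE-WD 2 (red squares). For Col1a1, the difference of CT-WD from CT-CTD is 0.79 with all libraries and -0.66 with 12, while that of OE-CTD from CT-CTD is 1.77 in both.

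Of the genes described here, those of type I collagen had the largest log2 fold changes between OE and CT libraries, though differences between genes were not tested. Col1a1 stood at 99.9, 69.4 and 72.9 CPM in CT-CTD and at 316, 53.2 and 49.0 CPM in CT-WD. In OE-CTD it stood at 289, 335, 279 and 197 CPM, and in OE-WD at 194, 616, 306 and 254 CPM. Each of the 8 OE libraries was above the 5 CT libraries other than CT-WD 1, which alone reached the OE range. The log2 fold change of Col1a1 in OE-CTD against CT-CTD was 1.77 (SE 0.549), and edgeR's quasi-likelihood test gave it an adjusted p of 0.109. Averaged over diets it was 1.53 (SE 0.384), with an adjusted p of 0.0234 by the same edgeR test, and 2.26 (SE 0.250) without CT-WD 1. Without OE-WD 2 the averaged difference was 1.31 (SE 0.361), with an adjusted p of 0.0506 by edgeR. On western diet the difference was 1.30 (SE 0.537) with all libraries and 2.74 (SE 0.389) without CT-WD 1, where edgeR's adjusted p went from 0.240 to 0.00196.

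Col1a2 encodes the partner chain of type I collagen and moved with Col1a1 library by library. It stood at 141, 97.9 and 95.7 CPM in CT-CTD and at 398, 74.5 and 72.9 CPM in CT-WD. The OE-CTD libraries had 329, 405, 333 and 202 CPM and the OE-WD libraries 246, 731, 370.5 and 254 CPM, so the lowest OE library again lay above every CT library but CT-WD 1. Its log2 fold change averaged over diets was 1.32 (SE 0.372), adjusted p = 0.0389 by edgeR's quasi-likelihood test. For OE-CTD against CT-CTD the value was 1.51 (SE 0.531), adjusted p = 0.160 by edgeR. The averaged difference was 1.98 (SE 0.263) without CT-WD 1 and 1.09 (SE 0.345) without OE-WD 2, with adjusted p-values of 0.000282 and 0.0839 by edgeR. In OE-WD against CT-WD it was 1.14 (SE 0.522), and 2.44 (SE 0.409) without CT-WD 1, where edgeR's adjusted p went from 0.284 to 0.00377. With single libraries left out that difference ran from 0.67 to 2.44.

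The difference of both type I genes between CT-WD and CT-CTD changed sign with 1 library. Col1a1 differed between CT-WD and CT-CTD by 0.79 (SE 0.561) on the log2 scale with all libraries and by -0.66 (SE 0.365) without CT-WD 1. Col1a2 went from 0.71 (SE 0.546) to -0.60 (SE 0.389), and none of the 4 values passed the adjusted level by edgeR's test. In OE the diet difference of Col1a1 was 0.32 (SE 0.480), and -0.13 (SE 0.480) without OE-WD 2.

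Type III collagen forms fine fibrils, often together with type I. Col3a1 was measured at 94.5, 135 and 81.3 CPM in CT-CTD, at 243, 85.3 and 97.2 CPM in CT-WD, at 258, 289.8, 311 and 175 CPM in OE-CTD and at 148, 358, 164 and 225 CPM in OE-WD. The OE-CTD libraries lay above the CT-CTD libraries, and OE-WD 1 and 3 lay close to CT-CTD 2. The log2 fold change was 1.32 (SE 0.364) on control diet, with an adjusted p of 0.0714 by edgeR's quasi-likelihood test. Averaged over diets it was 0.99 (SE 0.254), with an adjusted p of 0.0265 by that edgeR test, and without OE-WD 2 it was 0.82 (SE 0.232), with an adjusted p of 0.0536. For OE-WD against CT-WD the value was 0.66 (SE 0.356), and 1.29 (SE 0.323) without CT-WD 1, where edgeR's adjusted p went from 0.371 to 0.0233. With single libraries left out that value ran from 0.33 to 1.29.

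The log2 fold changes of the 3 type V genes between OE-CTD and CT-CTD were below those of type I, a difference between genes that was not tested. Col5a1, whose chain occurs in most type V trimers, stood at 21.1, 24.4 and 22.5 CPM in CT-CTD and at 47.9, 55.9, 55.7 and 47.4 CPM in OE-CTD. In CT-WD it stood at 40.0, 21.2 and 21.5 CPM and in OE-WD at 30.9, 70.4, 39.7 and 49.4 CPM. The gap on control diet, from 24.4 to 47.4 CPM, was wide beside the spread inside either group. Col5a1 rose in OE-CTD by a log2 fold change of 1.19 (SE 0.248), adjusted p = 0.0223 by edgeR's quasi-likelihood test, and averaged over diets by 0.99 (SE 0.174), adjusted p = 0.0039. On western diet the difference was 0.78 (SE 0.244), with an adjusted p of 0.129 by edgeR. Without CT-WD 1 it was 1.16 (SE 0.234), with an adjusted p of 0.00917 by edgeR. With single libraries left out the western difference ran from 0.53 to 1.16.

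Col5a3, a chain of type V collagen with a narrower tissue range, had the least spread of the collagens. Its CPM was 25.8, 21.3 and 20.1 in CT-CTD, 26.7, 24.3 and 31.2 in CT-WD, 37.5, 41.7, 38.2 and 31.1 in OE-CTD, while OE-WD had 28.7, 42.1, 32.7 and 40.5. CT-WD 1 did not stand apart in Col5a3, and CT-WD 3 overlapped the OE range. The rise in OE-CTD was 0.73 (SE 0.145) on the log2 scale, adjusted p = 0.0167 by edgeR's quasi-likelihood test. Averaged over diets it was 0.56 (SE 0.102), adjusted p = 0.00449 by edgeR, which is under the fold threshold of 1.5 (0.58 on the log2 scale).

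Col5a2 was the least abundant of the 6 collagens. Its levels ran from 12.2 CPM in CT-WD 2 to 49.1 CPM in OE-WD 2, with means of 15.9 ± 2.28 CPM in CT-CTD (SD, n = 3) and 32.6 ± 8.28 CPM in OE-CTD (SD, n = 4). The log2 fold change averaged over diets was 0.80 (SE 0.218), adjusted p = 0.0345 by edgeR's quasi-likelihood test. It was 0.998 (SE 0.209) without CT-WD 1 and 0.64 (SE 0.187) without OE-WD 2, with adjusted p-values of 0.00534 and 0.0638 by edgeR. On control diet it was 1.04 (SE 0.311), adjusted p = 0.0962 by edgeR.

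P4ha1 did not follow the collagens it helps to hydroxylate. Its CPM was 47.4, 44.7 and 46.0 in CT-CTD, 57.8, 56.8 and 68.1 in CT-WD, 47.2, 54.5, 54.0 and 61.2 in OE-CTD, while OE-WD had 66.0, 59.6, 54.8 and 59.7. The 3 CT-WD libraries lay above the 3 CT-CTD libraries, and the 2 OE groups overlapped. The highest library was 1.52 times the lowest in FPKM, against 12.5 times for Col1a1. The diet difference in CT was 0.40 (SE 0.103) on the log2 scale, and 0.44 (SE 0.114) without CT-WD 1. It is under the fold threshold, and edgeR's quasi-likelihood test gave it an adjusted p of 0.394. In OE the diet difference was 0.15 (SE 0.0887), and averaged over genotypes 0.28 (SE 0.0678), adjusted p = 0.487 by edgeR. The genotype difference averaged over diets was 0.11 (SE 0.0679), adjusted p = 0.361 by edgeR. In OE-CTD against CT-CTD it was 0.24 (SE 0.0965), adjusted p = 0.240 by edgeR.

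Of the lysyl oxidases, Loxl1, best known from elastic fibres, passed the adjusted level in OE-CTD against CT-CTD, and Lox did not. Their ratio, tested below, did not differ between OE and CT at the adjusted level. Loxl1 stood at 13.4, 14.4 and 12.2 CPM in CT-CTD and at 25.5, 10.7 and 13.7 CPM in CT-WD. In OE-CTD it stood at 26.5, 30.8, 29.6 and 29.3 CPM, and in OE-WD at 19.2, 31.2, 21.4 and 27.3 CPM. Every OE library exceeded every CT library other than CT-WD 1. Loxl1 rose in OE-CTD by a log2 fold change of 1.13 (SE 0.231), adjusted p = 0.0199 by edgeR's quasi-likelihood test. Averaged over diets the rise was 0.85 (SE 0.162), adjusted p = 0.006 by edgeR. On western diet the difference was 0.56 (SE 0.227), and 1.02 (SE 0.177) without CT-WD 1, where edgeR's adjusted p went from 0.228 to 0.00486. With single libraries left out the western difference ran from 0.33 to 1.02.

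Lox (ENSMUSG00000024529) encodes the founding lysyl oxidase and had the lowest counts of the 10 genes. It stood at 13.3, 6.23 and 10.01 CPM in CT-CTD, at 18.9, 9.37 and 10.7 CPM in CT-WD, at 12.8, 17.2, 22.0 and 10.4 CPM in OE-CTD, and at 12.9, 21.3, 15.3 and 11.7 CPM in OE-WD. CT and OE libraries overlapped on both diets. The log2 fold change was 0.67 (SE 0.310) on control diet and 0.45 (SE 0.217) averaged over diets, with adjusted p-values of 0.310 and 0.224 by edgeR's quasi-likelihood test.

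Sparc encodes a secreted glycoprotein that binds collagen and takes part in its assembly into fibrils. It stood at 252, 259 and 242 CPM in CT-CTD and at 370.5, 211 and 245 CPM in CT-WD. In OE-CTD it stood at 436, 434, 451 and 309 CPM and in OE-WD at 315, 566, 402 and 386 CPM. All 8 OE libraries exceeded the 5 CT libraries other than CT-WD 1, the lowest being OE-CTD 4. Averaged over diets Sparc rose by a log2 fold change of 0.65 (SE 0.142), adjusted p = 0.0123 by edgeR's quasi-likelihood test. The differences on control and western diet were 0.70 (SE 0.202) and 0.60 (SE 0.201), with adjusted p-values of 0.0843 and 0.154 by edgeR. Without CT-WD 1 the western value was 0.87 (SE 0.195), with an adjusted p of 0.0143 by edgeR. With single libraries left out the western value ran from 0.42 to 0.87. Without OE-WD 2 the averaged difference was 0.56 (SE 0.127), which is under the fold threshold.

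Compared per length, Sparc was the most abundant of the 10 genes, with a mean of 100.5 ± 29.6 FPKM over the 14 libraries (SD), rank 416 in the table. Type I and III collagen followed at 37.2 ± 25.8 FPKM for Col1a1, 23.5 ± 15.8 FPKM for Col1a2 and 21.2 ± 10.1 FPKM for Col3a1, whose ranges overlap. In CT-CTD, P4ha1 at 12.2 FPKM lay above Col3a1 at 11.5 and Col1a2 at 9.78 FPKM, so this order is one of means over all groups. FPKM takes the annotated gene length, 12426 bases for Col1a2 and 6563 for Col1a1. In CPM, Col1a2 had the higher mean of the 2, 268 against 224. The order by FPKM and the collagen shares below rest on these lengths. P4ha1 stood at 14.8 ± 1.98 FPKM and Loxl1 at 7.22 ± 2.55 FPKM. The low end held Col5a3 at 5.07 ± 1.205, Col5a1 at 5.04 ± 2.05, Lox at 3.11 ± 1.05 and Col5a2 at 2.95 ± 1.22 FPKM, neighbours that do not differ beyond their spread. Of the summed FPKM of the 6 collagens, Col1a1 took 36.3% on average, Col3a1 23.9%, Col1a2 23.6%, Col5a3 6.72%, Col5a1 5.93% and Col5a2 3.51%. Col3a1 took 26.8% in CT-CTD and 19.3% in OE-WD, where Col1a2 took 22.6% and 26.0%. Col5a3 took 8.36% in CT-CTD and 5.11% in OE-CTD, where Col5a1 took 6.85% and 5.76%. Col1a1, Col1a2 and Col3a1 together took between 71.8% and 90.6% in single libraries.

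Some proportions to Col1a1 differed by labelled genotype, or by diet if the names are exchanged. Ratios of FPKM within a library do not depend on library scaling, and 8 of them were tested by a two-sided exact permutation test on the log2 ratio, with genotype permuted within diet and diet within genotype. Of the 8, 5 differed between OE and CT at a Benjamini-Hochberg adjusted p under 0.05 over the 16 tests, and 0 differed by diet, where the lowest adjusted p of the exact test was 0.681. All 5 contain Col1a1, whose own level differs between genotypes, so they are not 5 separate differences, and libraries of a shared number count as separate in these tests.

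Relative to its partner Col1a2, Col1a1 was higher in libraries labelled OE. Whether the FPKM ratio lies above or below 1 depends on the annotated gene lengths. The ratio of Col1a1 to Col1a2 was 1.34, 1.34 and 1.44 in CT-CTD and 1.502, 1.35 and 1.27 in CT-WD. It was 1.66, 1.57, 1.58 and 1.85 in OE-CTD, while OE-WD had 1.49, 1.60, 1.56 and 1.89. Only CT-WD 1 and OE-WD 1, at 1.502 and 1.49, overlapped between genotypes. The log2 ratio differed by 0.26 between OE and CT, p = 0.00163 and adjusted p = 0.0131 by the exact permutation test over 1225 relabellings, whose smallest possible p is 0.000816.

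Relative to Col1a1, Lox, P4ha1, Sparc and Col3a1 were lower in libraries labelled OE. The ratio of Lox to Col1a1 was 0.181, 0.123 and 0.187 in CT-CTD, 0.0817, 0.240 and 0.298 in CT-WD, 0.0607, 0.0699, 0.108 and 0.0718 in OE-CTD, while OE-WD had 0.0907, 0.0472, 0.0681 and 0.0628. Without CT-WD 1, all CT libraries were at 0.123 or more and all OE libraries at 0.108 or less. The log2 ratio of Lox to Col1a1 fell by 1.28 in OE, adjusted p = 0.0131 by the exact permutation test. Those of P4ha1 and Sparc to Col1a1 fell by 1.64 and 1.099, with adjusted p-values of 0.0229 and 0.0174 by the exact permutation test, and that of Col3a1 to Col1a1 fell by 0.72, adjusted p = 0.0366. For Col5a1 to Col1a1 the difference was -0.76, with an adjusted p of 0.0544 by the exact test.

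The 2 ratios without Col1a1 did not pass. Col5a2 to Col5a1 differed by -0.19, adjusted p = 0.464, and Loxl1 to Lox by 0.42, adjusted p = 0.175, both by the exact permutation test. The count of 5 ratios was 0 without CT-WD 3, 3 without CT-WD 2, and 2 without OE-WD 2 or without OE-WD 3. With CT-WD 1 and OE-WD 2 both out it was 6.

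**Figure D3:**
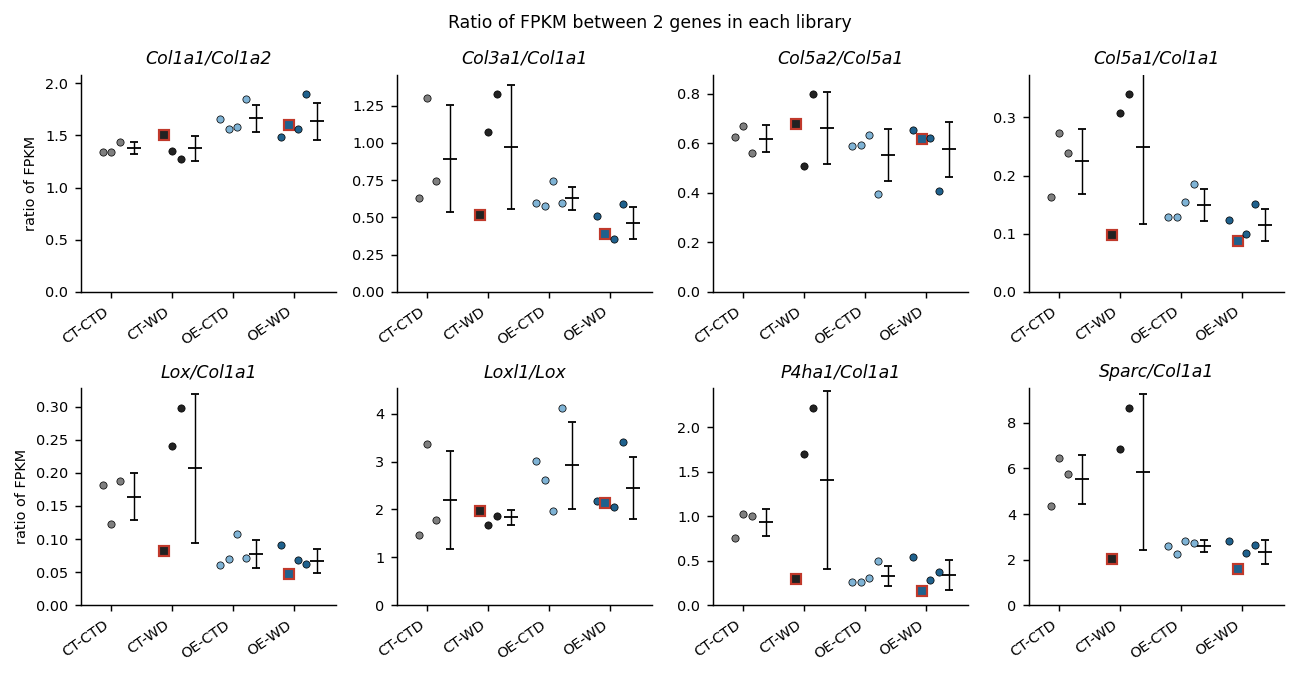
Ratio of FPKM between 2 genes (vertical axis, from 0, no unit) in each of the 14 libraries, by group, with the mean and SD of each group as a bar and red squares marking CT-WD 1 and OE-WD 2. The ratio of Col1a1 to Col1a2 lies between 1.27 and 1.502 in CT and between 1.49 and 1.89 in OE.

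Across the 14 libraries, 9 of the 10 genes varied together and P4ha1 did not. The log2 CPM was correlated for each of 45 pairs of genes, with a permutation test of 100000 resamples and Benjamini-Hochberg adjustment over the pairs. All 36 pairs without P4ha1 passed an adjusted p under 0.05 by Pearson and by Spearman correlation, with Pearson's r from 0.655 to 0.993. None of the 9 pairs with P4ha1 passed by either measure, and r ran from 0.121 to 0.390. Col1a1 and Col1a2 had the highest r, 0.993, with a Spearman rho of 0.987 and a permutation p of 1e-05, the smallest these resamples can give, for both (adjusted p = 5.6e-05 and 6.4e-05). Col5a2 and Sparc had an r of 0.960 and a rho of 0.969, and Lox and Loxl1 an r of 0.661 and a rho of 0.644.

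With CT-WD 1 and OE-WD 2 both left out, 36 of the 45 pairs passed the permutation test by Pearson correlation. Without the 2 libraries farthest from the median of the pair's first gene, r of the 36 pairs ran from 0.467 to 0.989, and where that gene was Col1a1 or Col1a2, the 2 left out were CT-WD 2 and CT-WD 3. After each group's mean was subtracted, it ran from 0.340 to 0.989, given as a description. Within the 8 OE libraries, exact permutation tests passed 18 of 45 pairs by Pearson and 11 by Spearman correlation. Within the 6 CT libraries they passed 4 and 0, and r of the 36 pairs ran from 0.0960 to 0.998. In OE, the 9 pairs with P4ha1 had r from -0.466 to -0.216, and in CT from -0.0328 to 0.860, the highest being that with Col5a3. In neither genotype did any of them pass the exact permutation test at the adjusted level. Without the 2 farthest libraries, r of these 9 pairs ran from -0.105 to 0.619. Libraries of a shared number count as separate in these tests as well.

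Genes outside the list with the most similar profile were ranked by Pearson's r of their log2 CPM with the mean centred profile of the 10 genes, over 14 libraries and 12736 genes of at least 1 CPM. The closest was Fn1, fibronectin, at 0.979 (rho 0.943). Ssc5d, Lrp1, Fndc1, Adamts2, Emilin2, Bgn, Antxr2, Mmp2 and Sec24d followed, down to 0.971. Adamts2 encodes a procollagen N-propeptidase, Mmp2 a gelatinase, and Sec24d a part of the vesicle coat that leaves the endoplasmic reticulum.

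Other genes of collagen biology and markers of cell types were read from lists, whose counts stand beside those of all genes tested. Called higher by edgeR were 1.18% at the adjusted and 4.94% at the unadjusted level in OE-CTD against CT-CTD, 2.4% and 4.9% averaged over diets, and 0.252% and 3.32% in OE-WD against CT-WD. With libraries of a shared number summed, very few of all genes passed the adjusted level, as given above. Most adjusted calls of the lists here and below cannot remain in that fit. Of 27 tested genes for collagen processing and crosslinking, 5 rose in OE-CTD against CT-CTD at the adjusted level of edgeR's quasi-likelihood test, and 11 at the unadjusted level. The 5 were Loxl2, P3h2, Serpinh1, Bmp1 and Pcolce. Serpinh1, the collagen chaperone, differed by 0.87 (SE 0.194) on the log2 scale, Pcolce, which enhances procollagen cleavage, by 1.08 (SE 0.211), Bmp1, the procollagen C-proteinase, by 0.65 (SE 0.132), and Loxl2 by 1.16 (SE 0.268). Averaged over diets 7 passed, adding Loxl4, Fkbp10 and Adamts2 to Loxl2, P3h2, Serpinh1 and Pcolce. In OE-WD against CT-WD 0 passed the adjusted and 5 the unadjusted level of edgeR's test. P4hb, the partner of P4ha1 in prolyl 4-hydroxylase and the most abundant gene of this list at 74.3 FPKM, differed by -0.045 (SE 0.0590) averaged over diets. Mia3, which helps export procollagen, differed by -0.21 (SE 0.0461) averaged over diets, below the fold threshold.

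Genes of the matrix around the fibrils were read next. Of 25, 25 had a positive log2 fold change in OE-CTD against CT-CTD, 7 passed the adjusted level of edgeR's test (Fn1, Tnxb, Col6a1, Col6a2, Fbn1, Fbln5 and Mfap5) and 22 the unadjusted level. Averaged over diets 14 passed, and in OE-WD against CT-WD 0 passed the adjusted and 10 the unadjusted level. The 14 were Fn1, Dcn, Bgn, Lum, Prelp, Tnxb, Tnc, Thbs2, Col6a1, Col6a2, Col6a3, Col16a1, Fbn1 and Dpt. With libraries of a shared number summed, most of the 7 calls and part of the 14 cannot remain, as stated above. The most abundant were Fmod at 63.5, Dcn at 49.3 and Dpt at 20.4 FPKM.

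Of the 5 other fibrillar collagen genes, 0 passed the adjusted level of edgeR's test in OE-CTD against CT-CTD and 2 the unadjusted level, while averaged over diets Col11a1 passed, at 1.73 (SE 0.464). They were rare, Col11a2 at 2.41, Col24a1 at 0.796 and Col11a1 at 0.357 FPKM being the most abundant. Of 20 genes of the TGF-beta axis, a main inducer of collagen genes, Tgfb1 and Ltbp4 rose in OE-CTD against CT-CTD, by 0.91 (SE 0.196) and 0.74 (SE 0.126). Of the 20, 13 had a positive difference there, the median was 0.0770, and Smad3 was lower at the unadjusted level of edgeR's test. Ccn1 and Tgif1 were lower at that level in OE-WD against CT-WD. Ltbp4 also passed in OE-WD against CT-WD, at 0.69 (SE 0.125), adjusted p = 0.0297 by edgeR. Ccn1, Ltbp4 and Smad3 were the most abundant of that list, at 49.4, 36.2 and 27.2 FPKM. In the diet comparisons and the interaction, 0 genes of these 4 lists passed the adjusted level of edgeR's test.

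Some fibroblast markers were higher in OE-CTD than in CT-CTD at the adjusted level, and some tendon markers at the unadjusted level only. All 12 fibroblast markers had a positive log2 fold change in OE-CTD against CT-CTD. Of them, 4 passed the adjusted level of edgeR's quasi-likelihood test (Pi16, Mfap5, Gfpt2 and Cd34) and 10 the unadjusted level. Averaged over diets Dcn, Lum, Dpt and Gfpt2 passed. Dcn, Lum, Dpt and Mfap5 are also in the list of matrix genes above, so their calls are counted in both lists. In OE-WD against CT-WD, 0 fibroblast markers passed at either level. Most of the 4 calls in OE-CTD against CT-CTD cannot remain with libraries of a shared number summed, as stated above. Their summed level was 1018, 825 and 724 CPM in CT-CTD, 1630.0, 883 and 892 CPM in CT-WD, 1421, 1703, 1637 and 966 CPM in OE-CTD, and 1367, 2201, 1559 and 1029 CPM in OE-WD. OE-CTD 4 lay below CT-CTD 1 in this sum, but above it in that of the 10 genes. Gsn was the most abundant, at 253 FPKM, before Dcn and Ly6a at 49.3 and 46.6 FPKM, and no marker of this list had a mean under 0.05 CPM.

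All 9 tendon markers had a positive difference in OE-CTD against CT-CTD, 0 passing the adjusted and 6 the unadjusted level of edgeR's test, and in OE-WD against CT-WD 0 and 2. Averaged over diets Tnmd, Thbs4 and Cilp2 passed, at 1.51 (SE 0.438), 1.13 (SE 0.235) and 1.79 (SE 0.517). The summed level of the tendon list was 259, 109 and 176 CPM in CT-CTD, 545, 88.2 and 112 CPM in CT-WD, 449, 685, 551 and 337 CPM in OE-CTD, and 457, 969, 631 and 335 CPM in OE-WD. Like the 10 genes, it was highest in CT-WD 1 and OE-WD 2 within their groups. Fmod, which is in the list of matrix genes as well, was its most abundant gene at 63.5 FPKM, before Thbs4 at 42.4 and Chad at 11.05 FPKM. None of the 9 had a mean under 0.05 CPM. The transcription factor Scx, which marks tendon cells and is named here after its value was seen, differed by 0.23 (SE 0.222) in OE-CTD against CT-CTD. The part of fibroblast and tendon RNA in the collagen differences was not tested.

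Macrophage markers also stood higher in some of these libraries. All 10 had a positive difference in OE-CTD against CT-CTD, 0 passing the adjusted and 8 the unadjusted level of edgeR's test, with a median of 0.87. In OE-WD against CT-WD 8 were positive, with a median of 0.10, and 0 passed at either level, while averaged over diets 0 passed the adjusted and 3 the unadjusted level. In CT-WD against CT-CTD the median was 0.58, and 0 passed the adjusted and 3 the unadjusted level, namely Cd14, C1qa and C1qb. Their summed level was 88.2, 53.8 and 47.4 CPM in CT-CTD, 143, 72.2 and 59.2 CPM in CT-WD, 90.7, 109.7, 142 and 88.7 CPM in OE-CTD, and 85.3, 140.2, 87.5 and 93.0 CPM in OE-WD. Lyz2 led at 23.3 FPKM, before C1qa and C1qb at 13.3 and 8.32 FPKM. Their part in the collagen differences was not tested.

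Epidermis markers varied widely between libraries of a group. Their summed level was 49.2, 4.85 and 12.8 CPM in CT-CTD, 105, 10.9 and 11.6 CPM in CT-WD, 22.4, 42.1, 42.0 and 2.45 CPM in OE-CTD, and 18.1, 89.3, 134 and 39.7 CPM in OE-WD, with Krt5, Lor and Krt10 the most abundant at 5.02, 4.78 and 4.32 FPKM. CT-WD 1 and OE-WD 2 were among the 3 highest libraries. Of 6 tested epidermis markers, 0 passed the adjusted level in any comparison, and 1 the unadjusted level in OE-CTD against CT-CTD. For western against control diet as labelled, averaged over genotypes, all 6 had a positive difference, with a median of 1.08, and 3, Krt10, Krt1 and Lor, passed the unadjusted level. The part of skin RNA in the levels of these libraries was not tested.

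Muscle markers were abundant in every library. The 10 skeletal muscle markers, led by Acta1, Tnnt3 and Myh4, summed to 125322 to 180916 CPM per library, and the fast fibre markers, led by Tnnt3, Atp2a1 and Myh4, to between 108800.2 and 153781 CPM. The slow fibre markers, led by Myl3, Tnnc1 and Myl2, summed to between 4743 and 7513 CPM, so fast fibre genes dominated every library. In OE-CTD against CT-CTD, 0 of these markers passed the adjusted level of edgeR's test, and 0 skeletal, 0 slow and 1 fast marker, lower in OE-CTD, passed the unadjusted level. Positive differences were found there for 9 of 9 slow markers, with a median of 0.27, 5 of 10 skeletal and 6 of 10 fast markers. OE-CTD 4, lowest of its group in the summed level of the 10 genes, was highest of its group in fast fibre markers, at 147731 CPM. OE-WD 4 had the highest fast fibre sum of all, but not the lowest level of the 10 genes in its group, and the part of fibre mixture in the differences was not tested.

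Endothelial cells, where the transgene is driven, gave 0 of 10 markers past the fold threshold at either level of edgeR's test in OE-CTD against CT-CTD. Cdh5, the most abundant of them before Pecam1 and Egfl7, differed by 0.36 (SE 0.0639) averaged over diets, adjusted p = 0.0039 by edgeR. The summed endothelial level ran from 420.4 to 455 CPM in CT-CTD and from 495 to 537 CPM in OE-CTD, and from 452 to 519 CPM in CT-WD and from 544 to 560.2 CPM in OE-WD, without overlap of the labelled genotypes on either labelled diet. Its part in the collagen differences was not tested.

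The remaining lists gave few calls. Of 8 smooth muscle and pericyte markers, led by Rgs5, Acta2 and Pdgfrb, 1 passed the unadjusted and 0 the adjusted level of edgeR's test in OE-CTD against CT-CTD, and Cspg4 passed averaged over diets at 0.72 (SE 0.156). Of 8 adipocyte markers, led by Fabp4, Cfd and Cidec, 1 was higher and 1 lower at the unadjusted level on control diet, where 7 had a negative difference, Lep being the other, and the median was -0.21. In CT-WD against CT-CTD 0 of the 8 were positive, with a median of -0.78, and 0 passed at either level. For OE against CT averaged over diets 4 of the 8 were positive, with a median of 0.0464, and Lep passed at 2.25 (SE 0.506). For western against control diet as labelled, Lep was lower at the unadjusted level, by 1.17 (SE 0.493), adjusted p = 0.769 by edgeR. Of 7 Schwann cell markers, 0 passed at either level of edgeR's test in OE-CTD against CT-CTD or averaged over diets. Of 7 cartilage and bone markers 2 could be tested and 0 passed the adjusted level, while 1 passed the unadjusted level on control diet. Acan, Bglap, Ibsp and Sp7 had a mean under 0.05 CPM, and the most abundant of that list, Dmp1, had a mean of 0.664 FPKM, before Col2a1 and Matn3.

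**Figure D4:**
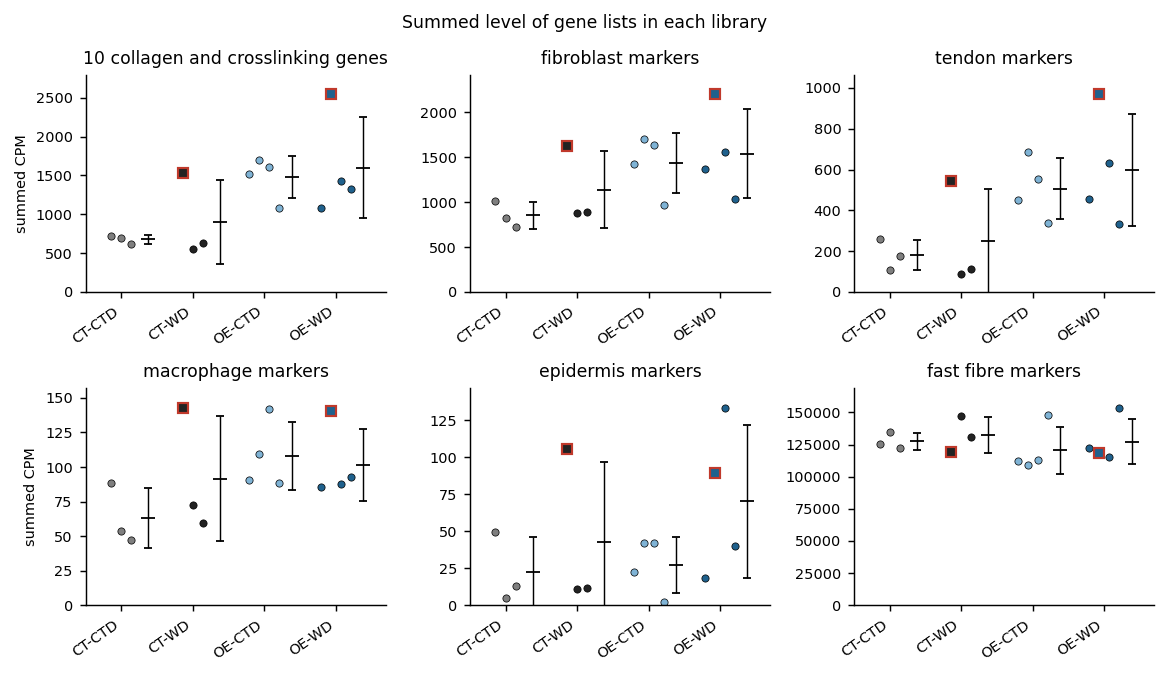
Summed CPM (vertical axis, from 0) of the 10 collagen and crosslinking genes and of 5 marker lists in each of the 14 libraries, by group, with the mean and SD of each group as a bar ending at 0 and red squares marking CT-WD 1 and OE-WD 2. The sum of the 10 genes and that of the tendon markers are both highest in OE-WD 2, at 2545 and 969 CPM.

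The 10 genes lie on several chromosomes, as given in the count table on build mm10. Col3a1 (ENSMUSG00000026043, chr1:45311538-45349706, plus strand) and Col5a2 (ENSMUSG00000026042, chr1:45374321-45503282, minus strand) are neighbours, with 24614 bases between them. Col1a1 (ENSMUSG00000001506, chr11:94936224-94953042, plus strand) and Sparc (ENSMUSG00000018593, chr11:55394500-55423183, minus strand) share a chromosome but lie far apart. Col5a3 (ENSMUSG00000004098, chr9:20770050-20815067, minus strand) and Loxl1 (ENSMUSG00000032334, chr9:58287738-58313186, minus strand) do so as well. Col1a2 (ENSMUSG00000029661) lies at chr6:4504814-4541544, Col5a1 (ENSMUSG00000026837) at chr2:27886425-28039514 and P4ha1 (ENSMUSG00000019916) at chr10:59323296-59373304, all on the plus strand. All 10 are annotated as protein coding, and 9 have the same coordinates in GENCODE M21, all but Lox (chr18:52516069-52529867, minus strand).

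The strand setting of the counting is not given in the sources used here, so reads of a gene and of an antisense partner cannot be told apart. The genes 2810430I11Rik and Gm13372, antisense to Col5a1 and named because of that position, held 0.417% and 0.245% of its summed counts, and overlapping genes in the table at Col1a2, Col3a1, Col5a2 and Col5a3 held at most 0.00901%. AC161119.1, antisense to Lox, has no counts here, so its share cannot be given.

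Since the collagens moved together, their promoters were searched for shared short motifs. RefSeq promoters (GRCm38.p6, 250 bases before to 50 after the start) matched 6 of the 10 genes, Col1a2, Col3a1, Col5a1, Col5a3, P4ha1 and Sparc. The motifs were TATAAA, the core of the TATA box, CCAAT, the core of the CAAT box, the GC box GGGCGG, and CACGTG, the E-box that Myc with Max can bind, each on both strands. The CACGTG motif was found in 0 of the 6, against 7.15% of 32851 promoters of this length, GGGCGG in 4 against 35.7%, CCAAT in 2 against 37.4% and TATAAA in 2 against 13.6%. A match is a description and not a site, and a motif missing from the window says nothing of the factor.

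Promoters are shown for Col1a2 and Col3a1, a type I and a type III gene that passed averaged over diets, with matches to the 4 motifs in capitals, 5′ to 3′ on the strand of the gene. That of Col1a2 (chr6:4505368-4505667, plus strand) is 61.0% G or C, and that of Col3a1 (chr1:45311288-45311587, plus strand) is 37.7%, beside a median of 52.7% over all promoters. The RefSeq start of Col1a2 lies inside the gene span of the count table, as does that of Sparc, which is among the promoters searched.
Col1a2: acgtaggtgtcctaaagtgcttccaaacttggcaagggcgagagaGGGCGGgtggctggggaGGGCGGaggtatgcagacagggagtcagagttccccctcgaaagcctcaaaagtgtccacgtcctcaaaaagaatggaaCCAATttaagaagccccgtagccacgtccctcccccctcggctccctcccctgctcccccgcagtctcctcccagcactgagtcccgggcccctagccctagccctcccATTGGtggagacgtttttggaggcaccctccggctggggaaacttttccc
Col3a1: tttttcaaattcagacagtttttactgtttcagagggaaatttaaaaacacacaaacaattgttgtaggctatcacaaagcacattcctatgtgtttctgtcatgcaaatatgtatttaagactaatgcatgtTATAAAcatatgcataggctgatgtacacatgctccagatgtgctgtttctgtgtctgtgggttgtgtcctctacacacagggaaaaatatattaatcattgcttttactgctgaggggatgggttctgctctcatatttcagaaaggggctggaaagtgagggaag
The capitals in Col1a2 are matches to the GC box and to CCAAT, which also lies there on the other strand, and those in Col3a1 a match to the TATA box.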

How the data were processed

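The authors deposited counts per gene and FPKM for 14 libraries of poly-A RNA, and the submitters' processing notes name HISAT2 2.0.5, featureCounts 1.5.0-p3 and build mm10, whose strand setting and annotation are not given in the sources used here. Counts were fitted in edgeR 4.0.16 (R 4.3.3; filterByExpr, TMM, quasi-likelihood test, 4 group means, all libraries), with p-values adjusted by Benjamini-Hochberg over 15458 genes. A gene was called at over 1.5-fold and p under 0.05. Alternatives were DESeq2 1.42.0, limma 3.58.1 on log2(FPKM + 1), other filters and scalings, a replicate block, single libraries left out and, chosen after the data were seen, libraries sharing a number summed. Ratios and correlations used permutation tests (numpy 2.4.6, scipy 1.17.1). Libraries of the same replicate number in CT-WD and CT-CTD deviated together from their group means over genes (r = 0.385, 0.123 and 0.203). No label says that they are paired, and whether they are was not tested. The block changed no call of the 10 genes in that comparison, while over all genes it gave 10 adjusted calls against 0. Between OE-WD and OE-CTD the same r was 0.0711, 0.138, 0.142 and 0.338. No library was a duplicate of another. Named genes are the 10 genes, the 3 most abundant of each list, genes of a list that passed, and the 10 most similar profiles. Some genes that meet this rule are not reported here. The 10 genes and the lists were chosen with earlier results of these data known.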

Additional observations from a re-analysis of the deposited data

Results flagged for a closer look

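Each value below stood apart from the other libraries of a group of 4, by a gap to the nearest library that was large beside the group's range. Of 70 such groups tested, 7 did so, and chance gives about 1 in 20. That figure takes every library as separate, and OE-CTD 4 is the library of its group whose name does not share the number.

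Sparc was at 309 CPM in OE-CTD 4, with the other OE-CTD libraries at 434 to 451 CPM. OE-CTD 4 also had the highest summed level of its group in skeletal muscle markers, 176573 CPM against 125322 to 131511 CPM, and in fast fibre markers, 147731 CPM against 108800.2 to 112979.9 CPM. The ratio of Col3a1 to Col1a1 in FPKM was 0.745 in OE-CTD 3 and 0.579 to 0.598 in the other OE-CTD libraries.

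In OE-WD 4 the FPKM ratio of Col5a2 to Col5a1 was 0.409, against 0.617 to 0.653 in the other OE-WD libraries. That of Loxl1 to Lox was 3.41, against 2.04 to 2.17. OE-CTD 4 had 0.396 and 4.13 in the same ratios. Summed macrophage markers were at 140.2 CPM in OE-WD 2 and at 85.3 to 93.0 CPM in the other OE-WD libraries.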

How the results depend on the processing

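The lowest count of any of the 10 genes was 149. Whether libraries of a group that share a number come from the same animal, and which muscle each holds, could not be checked here. The names CT-WD and OE-CTD are used the other way round in the study's text, going by fold changes of single genes, and with them exchanged each genotype difference below is one of diet and each diet difference one of genotype. The cause of the shifts below was not tested.

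Counts of the 10 genes called changed as follows. With no fold threshold, 1 gene passed the unadjusted level for diet in CT and 1 for diet averaged over genotypes. With no filter on low counts, the unadjusted count was 2 for diet in CT and 1 for the interaction, and the adjusted count was 3 for OE-WD against CT-WD and 8 for OE-CTD against CT-CTD. The shares of all genes in either direction were 2.98% for diet in CT, and 1.44% and 2.04% for the 2 adjusted counts. DESeq2 called 1 in OE-WD against CT-WD at the adjusted level, beside 1.99% of all genes in either direction. With limma and no filter on low FPKM, the adjusted counts were 0 for OE-CTD against CT-CTD and 4 for OE against CT averaged over diets. The shares of all genes in either direction were 0.158% and 0.513%. With only the groups compared in the fit, 8 passed the adjusted level in OE-CTD against CT-CTD and 2 the unadjusted level in OE-WD against CT-WD. Of all genes, 2.96% and 5.14% were then called in either direction. With CT-WD 1 and OE-WD 2 both left out, the adjusted counts were 6 for OE-WD against CT-WD and 8 for OE-CTD against CT-CTD, and the unadjusted counts were 7 for OE-WD against CT-WD and 2 for diet in CT. All genes then gave 3.10% and 2.79% at the adjusted and 9.85% and 5.29% at the unadjusted level, in either direction.

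Libraries of the same number in OE and CT share only a number. With the replicate block the adjusted count was 0 for OE-CTD against CT-CTD and 0 for OE against CT averaged over diets, while the unadjusted counts were 9 and 8. All genes then gave 0.0906% and 1.31% at the adjusted and 7.32% and 7.47% at the unadjusted level, in either direction. The block moved no other count by over 1.5 times. With libraries of a group that share a number summed, a setting added once values were known, adjusted calls numbered 0 for OE-CTD against CT-CTD and 0 for OE against CT averaged over diets, and the unadjusted count was 2 for OE-WD against CT-WD. The diet difference in OE then became 0.11 for Col5a2, 0.0388 for Col5a3 and 0.15 for Lox, and the interaction 0.0408 for Sparc.

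With single libraries left out, the adjusted counts ran from 0 to 6 for OE-WD against CT-WD, from 0 to 8 for OE-CTD against CT-CTD and from 2 to 8 for OE against CT averaged over diets. Unadjusted counts ran from 0 to 7 for OE-WD against CT-WD, from 0 to 1 for diet in CT, from 0 to 1 for diet averaged over genotypes and from 0 to 4 for the interaction, where 4 came without OE-WD 2. The count of ratios differing by genotype ran from 0 to 6.

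Directions turned with CT-WD 1 and OE-WD 2 both left out. The diet difference in CT became -0.66 for Col1a1, -0.60 for Col1a2, -0.18 for Col3a1, -0.0855 for Col5a1, -0.00803 for Col5a2, -0.12 for Loxl1 and -0.14 for Sparc. That in OE became -0.13 for Col1a1, -0.13 for Col1a2 and -0.15 for Sparc, and the interaction became 0.53 for Col1a1 and 0.47 for Col1a2. The diet difference of the log2 ratio became 0.0483 for Col3a1/Col1a1, 0.15 for Col5a1/Col1a1, 0.34 for Lox/Col1a1 and 0.24 for Sparc/Col1a1. On the linear scale, with all libraries, the diet difference of the ratio was 0.0163 for Lox/Col1a1 and 0.0275 for Sparc/Col1a1, against a negative difference on the log2 scale.

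With single libraries left out, the diet difference in CT ran from -0.66 to 1.19 for Col1a1, -0.60 to 1.09 for Col1a2, -0.18 to 0.72 for Col3a1, -0.0856 to 0.44 for Col5a1, -0.00697 to 0.66 for Col5a2, -0.12 to 0.57 for Loxl1 and -0.14 to 0.29 for Sparc. In OE it ran from -0.13 to 0.51 for Col1a1, -0.13 to 0.51 for Col1a2, -0.37 to 0.0413 for Col5a1, -0.41 to 0.0304 for Col5a2, -0.13 to 0.0497 for Col5a3, -0.23 to 0.18 for Lox and -0.15 to 0.15 for Sparc. OE-WD against CT-WD ran from -0.0701 to 0.0661 for P4ha1. The interaction ran from -0.92 to 0.98 for Col1a1, -0.84 to 0.93 for Col1a2 and -0.28 to 0.17 for Sparc. The diet difference of log2 ratios ran from -0.0513 to 0.0124 for Col1a1/Col1a2, -0.33 to 0.0115 for Col3a1/Col1a1, -0.00945 to 0.16 for Col5a2/Col5a1, -0.36 to 0.0870 for Col5a1/Col1a1, -0.21 to 0.26 for Lox/Col1a1, -0.22 to 0.51 for P4ha1/Col1a1 and -0.37 to 0.16 for Sparc/Col1a1.

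Of 240 values of single genes under other settings in OE-CTD against CT-CTD, 0 turned direction, 22 lost and 23 gained the call at the adjusted level. Of 230 for OE against CT averaged over diets, 0 turned, 50 lost and 4 gained that call.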
